A study of Mus musculus with 8 samples.

Results

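The genes described here are 6 neuropeptide precursors (Vip, Nmu, Gal, Cartpt, Penk and Calcb) and 4 genes used as general markers of neurons (Uchl1, Prph, Snap25 and Stmn2). They were taken by symbol from the deposited gene lists, in which they are 10 of 32285 gene IDs, and each symbol matched 1 ID. The values come mainly from 4 Visium sections, glass slides on which each spot collects the RNA of the tissue above it, so that a spot can hold several cells or part of one. There were 2 sections of small and 2 of large intestine of C57BL/6 mice, cut at 10 µm, and the series design calls the sections of a tissue technical duplicates. The same genes were also read in 4 single-cell libraries, with 1 library per group. Passage 1 small intestinal organoids of C57BL/6 origin, grown alone or in coculture, were each pooled from 16 wells and sorted for epithelial cells. Dissociated small and large intestine were sorted for live cells, with enrichment for LGR5+ stem cells and for lymphatic endothelial cells positive for CD31, PDPN and LYVE1. Mice of the C57BL/6 strain and Lgr5-eGFP-ires-CreERT2 mice on that background served for sorting. Ages, the number of animals and the coculture partner were not given in the sources used here.

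The gut holds its own nervous system. The cell bodies of enteric neurons lie in the myenteric plexus, between the layers of the muscle coat, and in the submucosal plexus beneath the mucosa, and their fibres reach the muscle, the vessels and the epithelium. Enteric neurons are told apart largely by the transmitters and peptides they make: Vip marks inhibitory motor and secretomotor neurons, the enkephalins made from Penk are opioid peptides of motor neurons and interneurons, and Nmu and Calcb are known from intrinsic sensory neurons. Galanin (Gal) and the CART peptide (Cartpt) are found in further, partly overlapping classes. Uchl1 encodes a ubiquitin hydrolase long used as a neuronal stain (PGP9.5), Prph the intermediate filament peripherin, Snap25 a SNARE protein of vesicle fusion, and Stmn2 a regulator of axonal microtubules.

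The members lie on 9 chromosomes of the mouse assembly GRCm38.p6, the RefSeq form of the mm10 build named in the submitters' processing notes, and all are annotated as protein coding. Vip lies at chr10:5639193-5647617, Gal at chr19:3409915-3414544 and Cartpt at chr13:99898483-99910179. Nmu and Uchl1 share chromosome 5, at chr5:76333495-76363777 and chr5:66676121-66687234. The RefSeq promoter table, with windows from 250 bases before to 50 bases after a start site of the gene, held windows for 6 of the members, and not for Penk, Calcb, Snap25 and Stmn2. Of these, the windows of Gal, Vip and Cartpt are shown. The Gal window is given because Gal differed most between the tissues, and the Vip and Cartpt windows because they hold TGACGTC (or GACGTCA, its reverse complement), the core of the cAMP response element, which is printed in capitals.
Gal promoter, chr19:3414495-3414794, minus strand, 5′ to 3′: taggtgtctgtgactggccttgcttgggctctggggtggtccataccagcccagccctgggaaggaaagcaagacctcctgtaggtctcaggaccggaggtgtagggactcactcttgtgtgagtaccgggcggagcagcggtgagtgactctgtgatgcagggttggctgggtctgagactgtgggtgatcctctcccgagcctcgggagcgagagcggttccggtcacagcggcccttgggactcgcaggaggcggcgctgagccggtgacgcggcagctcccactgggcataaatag
Vip promoter, chr10:5638968-5639267, plus strand, 5′ to 3′: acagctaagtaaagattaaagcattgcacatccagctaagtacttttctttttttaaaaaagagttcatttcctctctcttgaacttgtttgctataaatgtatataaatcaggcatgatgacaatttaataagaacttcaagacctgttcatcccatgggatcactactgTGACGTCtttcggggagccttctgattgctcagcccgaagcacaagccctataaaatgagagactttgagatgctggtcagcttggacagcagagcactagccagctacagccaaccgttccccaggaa
Cartpt promoter, chr13:99900634-99900933, minus strand, 5′ to 3′: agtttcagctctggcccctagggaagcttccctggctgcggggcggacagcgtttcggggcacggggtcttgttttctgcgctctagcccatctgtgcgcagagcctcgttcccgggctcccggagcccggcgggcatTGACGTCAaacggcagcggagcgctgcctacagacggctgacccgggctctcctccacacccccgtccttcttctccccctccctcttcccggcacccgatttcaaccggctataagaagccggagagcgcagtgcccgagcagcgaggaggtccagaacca
The start site of the Gal window is the outer start of the annotated gene, and that of the Vip window lies 25 bases inside it. The Cartpt window belongs to a start site 9496 bases inside the annotated span, not to the outermost one. In the Vip window the motif begins at position -79 from the start site, and in the Cartpt window at -112, where the 8 letters TGACGTCA read the same on both strands. TGACGTC was found on either strand in the windows of 3.60% of 27025 genes and TGACGTCA, which contains it, in those of 2.03%. A match is a string of letters and not a measured site.

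All 10 genes were detected in every section, and all but Penk were higher in both small intestine sections than in both large intestine sections, as were 41.1% of all genes tested. Levels are given in CPM, the unique molecular identifiers (UMIs) of a gene scaled to counts per 1000000 UMIs of the section, and the sections held from 24356162 to 43833127 UMIs over 2096 to 2574 spots. The median spot held 9009 and 10199 UMIs in the small intestine sections and 19320 and 19814 in those of the large intestine. A gene is called higher in a tissue where the log2 ratio of the tissues' CPM is at least 1, which is 2-fold, and the sections of the tissues do not overlap. By this rule 8 of the 10 members were called higher in small intestine, where 16.2% of the 16839 genes with at least 20 UMIs were called, and 0 were called higher in large intestine, where 14.4% were called. The median log2 ratio was 1.54 over the 10 members and 0.00 over all genes. With technical duplicates each tissue counts as 1 sample, so no test was made. The intervals in square brackets are 95% limits that cover counting error only. Tissue, slide area, animal and section cannot be told apart, and neither can fewer neurons in a section and less of an RNA per neuron.

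Gal differed most. Its level was 79.8 and 80.0 CPM in the small intestine sections and 3.78 and 4.31 CPM in the large intestine sections, a log2 ratio of 4.30 [4.14 to 4.46], or 19.7-fold. The ratio was 3.29, or 9.77-fold, when CPM was computed for each spot and averaged over spots. The duplicates of each tissue lay close together and far from the other tissue. Nmu, the precursor of neuromedin U, was at 14.0 and 41.6 CPM in small and at 2.98 and 3.81 CPM in large intestine, a log2 ratio of 3.10 [2.92 to 3.29]. The small intestine sections differed from each other 1.57 log2 units for Nmu, far more than counting error, yet both stood above the large intestine, and without section 2 the log2 ratio was 2.04. Calcb, which encodes the β form of calcitonin gene-related peptide, was at 8.50 and 19.5 CPM in small and at 1.99 and 2.46 CPM in large intestine, a log2 ratio of 2.71 [2.48 to 2.94] that was 1.93 without small intestine section 2. Calcb has a close paralogue, Calca, and how reads that fit both were counted is not given in the sources used here. Cartpt was at 12.6 and 16.4 CPM in small and at 3.20 and 3.08 CPM in large intestine, a log2 ratio of 2.23 [2.03 to 2.44].

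Vip and Penk differed less. Vip was at 63.5 and 86.2 CPM in the small intestine sections and at 40.8 and 37.8 CPM in those of the large intestine. Its log2 ratio of 0.95 [0.89 to 1.02] fell just short of the limit of 1, although the sections did not overlap. Penk was at 14.9 and 34.4 CPM in small and at 15.1 and 16.6 CPM in large intestine. Small intestine section 1 was thus no higher than either large intestine section, and the log2 ratio was 0.69 [0.58 to 0.80] with section 2 and -0.10 without it.

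The 4 pan-neuronal genes were all called higher in small intestine, by less than Gal, Nmu, Calcb and Cartpt. Uchl1 was at 40.2 and 70.1 CPM in small and at 18.2 and 24.0 CPM in large intestine, a log2 ratio of 1.42 [1.34 to 1.51]. Snap25 was at 13.1 and 27.2 CPM against 6.76 and 6.52 CPM, a log2 ratio of 1.65 [1.51 to 1.80]. Prph was at 19.3 and 34.4 CPM against 11.6 and 12.3 CPM, a log2 ratio of 1.21 [1.10 to 1.33]. Stmn2 was at 18.7 and 32.7 CPM against 12.4 and 13.6 CPM, and its log2 ratio of 1.03 [0.91 to 1.14] lay at the limit. For each of the 4, small intestine section 2 was the highest of the sections, by 0.80 to 1.06 log2 units over section 1. Without small intestine section 2 the log2 ratios of Uchl1, Prph, Snap25 and Stmn2 were 0.93, 0.69, 0.98 and 0.53, so none of them was called, and of the members only Gal, Nmu, Calcb and Cartpt were, beside 13.3% of all genes. Of the members the same 4 alone were called with the mean of the spots' CPM, by which 13.0% of all genes were. On that scale Nmu, Calcb and Cartpt gave log2 ratios of 2.05, 1.52 and 1.52, and Uchl1, Prph, Snap25 and Stmn2 gave 0.73, 0.30, 0.82 and 0.31. Vip gave 0.45 there and Penk -0.21, so the direction of Penk turned.

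**Figure D1:**
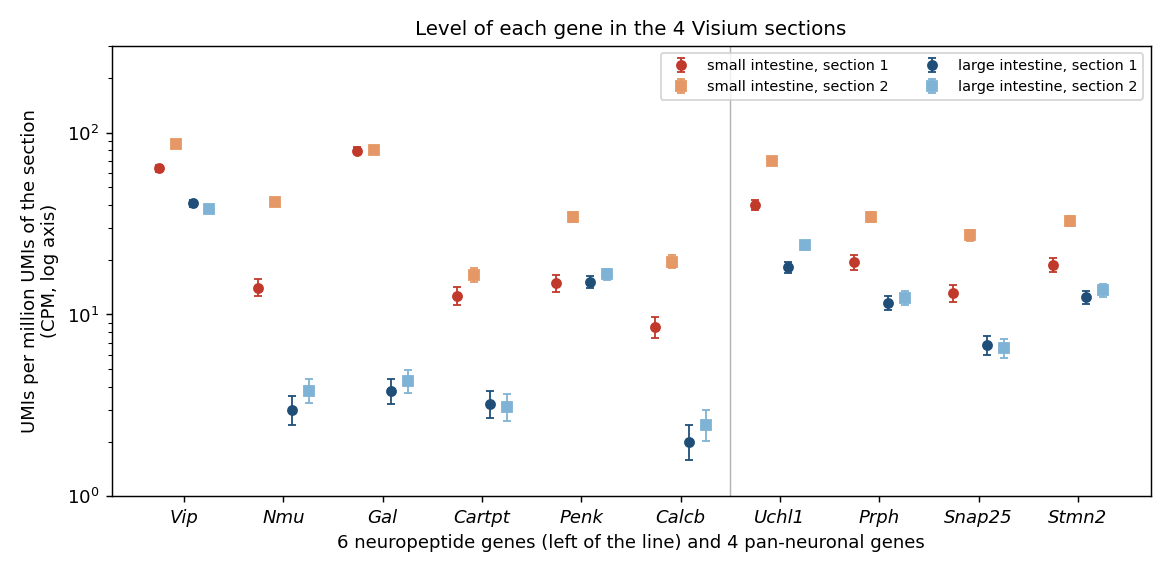
Level of each gene in each Visium section in CPM on a log axis, with small intestine in red and orange and large intestine in blue, and 95% counting intervals. Gal lies at 79.8 and 80.0 CPM in small and at 3.78 and 4.31 CPM in large intestine, while the Penk values of the tissues overlap.

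Muscle content moved in the same direction. The 8 smooth muscle genes of a fixed list (Acta2, Tagln, Myh11, Des, Actg2, Cnn1, Myl9 and Smtn) summed to 10896 and 14667 CPM in the small intestine sections and to 2870 and 2824 CPM in those of the large intestine. All 8 were called higher in small intestine, from a log2 ratio of 1.5 for Smtn and 1.67 for Tagln to 2.70 for Des and 2.72 for Actg2. Counted per UMI of these muscle genes, a scale added after the values were seen, every gene's log2 ratio is lower by 2.19, so that 86.7% of all genes were called higher in large and 2.52% in small intestine. A value below 0 on this scale says only that a gene's ratio was below that of the summed muscle genes. Gal was the 1 member called higher in small intestine, with a log2 ratio of 2.11. Nmu gave 0.91, Calcb 0.52 and Cartpt 0.04. Uchl1, Prph, Snap25 and Stmn2 gave -0.77, -0.98, -0.54 and -1.16, and Vip and Penk -1.24 and -1.5, so that these 6 differed less between the tissues than the summed muscle genes did.

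The precursors were next set against the pan-neuronal RNA of the same section, as UMIs per 100 summed UMIs of Uchl1, Prph, Snap25 and Stmn2. Snap25 and Stmn2 were also found in other cells, as described below for the sorted libraries. The part of such cells in these sums was not tested. This scale lowers the log2 ratio of every gene by 1.32, and 7.73% of all genes were higher in both small and 78.8% in both large intestine sections. Of the 6 precursors, 4 were higher in both small intestine sections and Penk was higher in both large intestine sections, as most genes were. Gal stood at 87.4 and 48.6 per 100 in small and at 7.73 and 7.65 per 100 in large intestine, a log2 ratio of 2.98 [2.82 to 3.14]. Nmu stood at 15.4 and 25.3 against 6.10 and 6.76 per 100, a log2 ratio of 1.78 [1.60 to 1.97]. Calcb stood at 9.31 and 11.9 against 4.06 and 4.37 per 100, a log2 ratio of 1.39 [1.16 to 1.62]. Cartpt stood at 13.9 and 9.98 against 6.54 and 5.47 per 100, a log2 ratio of 0.91 [0.71 to 1.12]. These 4 genes thus exceeded the difference in pan-neuronal RNA itself. Penk stood at 16.3 and 20.9 per 100 in small and at 30.9 and 29.5 per 100 in large intestine, a log2 ratio of -0.63 [-0.74 to -0.52]. Vip stood at 69.6 and 52.4 against 83.4 and 67.2 per 100, and its sections overlapped between the tissues. The direction of Gal, Nmu, Calcb, Cartpt and Penk was the same with 20 other pan-neuronal genes or Prph alone as the denominator and with each section left out in turn.

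**Figure D2:**
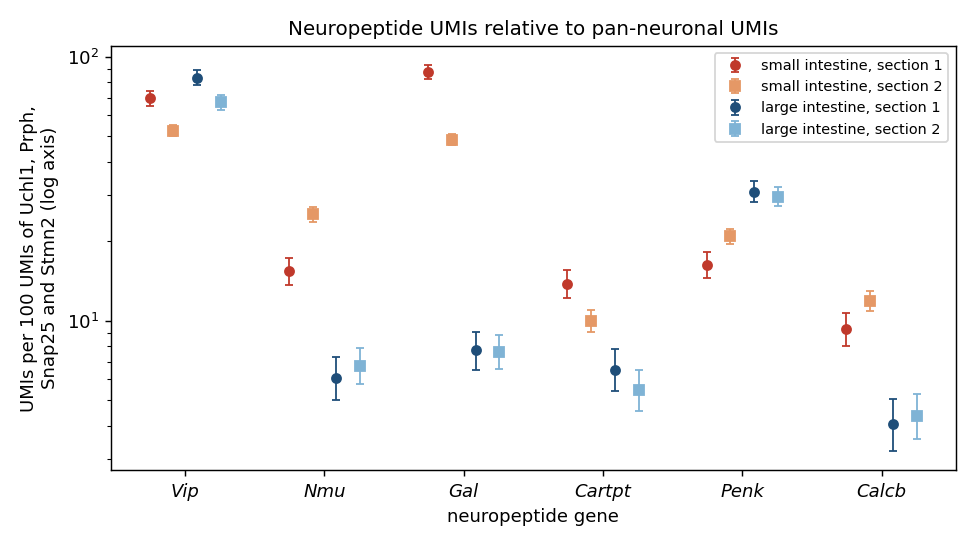
UMIs of each neuropeptide precursor per 100 UMIs of Uchl1, Prph, Snap25 and Stmn2 in each section, on a log axis with 95% counting intervals. Gal, Nmu, Calcb and Cartpt lie higher in the small intestine sections, Penk lies lower there, and the Vip sections overlap.

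Most other pan-neuronal genes differed between the tissues in the same direction as the pan-neuronal members. Of 20 further pan-neuronal genes, 15 were called higher in small and 0 in large intestine, with a median log2 ratio of 1.39. The highest were Scg2, a secretogranin of dense-core vesicles, at 2.47, and the RNA-binding protein Elavl3 at 1.80. The lowest were the neurofilament Nefm at -0.66 and the adhesion molecule Ncam1 at 0.00. Of 18 further enteric transmitter and peptide genes, 8 were called higher in small and 1 in large intestine, with a median of 0.76. The highest were Calca at 4.99 [3.37 to 7.31] and the dopamine-synthesis enzyme Th at 3.92 [2.52 to 7.61], both on few UMIs: Calca had 9 and 52 UMIs in small and 0 and 3 in large intestine, and Th had 9 and 20 against 1 and 1. The lowest were Ddc, the amine-synthesis decarboxylase, at -1.5 and the receptor Glp2r at -0.52. Ddc is also a gene of enteroendocrine cells and of the epithelium.

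Among 11 receptors for the members' peptides, 7 reached the minimum of 20 UMIs. The galanin receptor Galr2 was called higher in small intestine along with its ligand. It was at 8.29 and 13.4 CPM in small and at 0.727 and 0.570 CPM in large intestine, a log2 ratio of 4.10 [3.70 to 4.53]. The neuromedin U receptor Nmur2 was also called higher in small intestine, at 1.54 [0.55 to 2.59], with 9 and 17 UMIs in small and 9 and 5 in large intestine. Ramp1, the partner protein of the CGRP receptor, was called higher in large intestine, at -1.32 [-1.39 to -1.25]. The enteric glia genes S100b, Sox10 and Gfap were called higher in small intestine, at 1.13, 1.09 and 1.10. These values lay close to the limit on few UMIs, with 30 and 60 for Sox10 in small and 35 and 31 in large intestine. Of the 8 glia genes listed, 4 were not called, with log2 ratios from -0.66 to 0.35. Of 5 genes of interstitial cells, the pacemaker and fibroblast-like cells of the muscle, 1 was called: Ano1 was higher in large intestine at -2.15. Ano1 is also known from epithelium and was not higher in muscle-rich spots of the large intestine sections, with log2 ratios of -0.52 and -0.58 between the top and lowest band of spots described next.

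Within a section the members were concentrated in few spots. To compare spots at equal depth, each spot was thinned at random to 2000 UMIs, which left out 34, 150, 12 and 14 spots of small intestine sections 1 and 2 and large intestine sections 1 and 2. At this depth 81.8% and 74.2% of small intestine spots and 86.1% and 86.3% of large intestine spots held no UMI of any member. Spots with UMIs of 2 or more members made up 5.82% and 8.37% of the small intestine spots and 4.75% and 4.76% of the large intestine spots. Spots with 5 or more members numbered 21, 42, 12 and 14 in the same order.

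Vip and Gal had the most UMIs per spot with the gene, except that Penk, at 1.75, stood above Gal in large intestine section 2. A spot with the gene held on average 2.64, 2.60, 2.62 and 2.27 UMIs of Vip and 3.96, 2.98, 2.42 and 1.59 UMIs of Gal, in small intestine sections 1 and 2 and large intestine sections 1 and 2. The pan-neuronal genes gave 1.12 to 1.61 UMIs, and Calcb, at 1.15 to 1.32, lay within their range. In the small intestine sections, 50% of the thinned Gal UMIs lay in 5 and 6 spots, and a single spot held 59 and 42 of them. The corresponding number of Vip spots was 13 and 19 in small and 10 and 15 in large intestine, with up to 39, 30, 35 and 28 UMIs in a spot. Some genes with fewer UMIs also needed few spots, with 9, 11, 5 and 4 for Nmu on 53, 168, 28 and 21 thinned UMIs, and 4 for Cartpt on 45 in small intestine section 1. Uchl1 needed 38 and 50 spots in small and 29 spots in each large intestine section, and no spot held more than 9 UMIs of it. Stmn2 needed 25 and 39 spots in small and 29 and 25 in large intestine, with at most 4 UMIs in a spot. Gal was found in 3.64% and 4.54% of small intestine spots and in 0.576% and 0.785% of large intestine spots, the Vip shares being 6.25% and 7.05% against 4.37% and 4.99%.

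The spots that held the members were rich in muscle RNA. When the spots of each section were ranked by their UMIs of the 8 muscle genes and divided into 4 bands of 25% each, all 10 members were higher in the top than in the lowest band in all 4 sections. Of 9806 genes tested the same way, 33.4% were higher in all 4 sections, and 9.99% were at least 2-fold higher, as all 10 members were. Calcb stayed below the minimum for that set of genes and the other 9 members reached it. Vip went from 7.75 and 11.6 CPM in the lowest band to 273 and 233 CPM in the top band of the small intestine sections, and from 2.88 and 5.54 CPM to 207 and 193 CPM in the large intestine. These are ratios of 20.1-fold to 72.0-fold. Uchl1 differed 18.9-fold to 32.8-fold between these bands. Prph had 78, 118, 83 and 74 UMIs in the top bands and 1, 3, 0 and 2 in the lowest. The top band held 63.5% to 90.8% of the Vip UMIs, 85.2% to 91.2% of the Gal UMIs and 73.9% to 85.1% of the Uchl1 UMIs of a section. Spots with 2 or more members made up 21.9%, 26.6%, 18.2% and 18.3% of the top band.

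**Figure D3:**
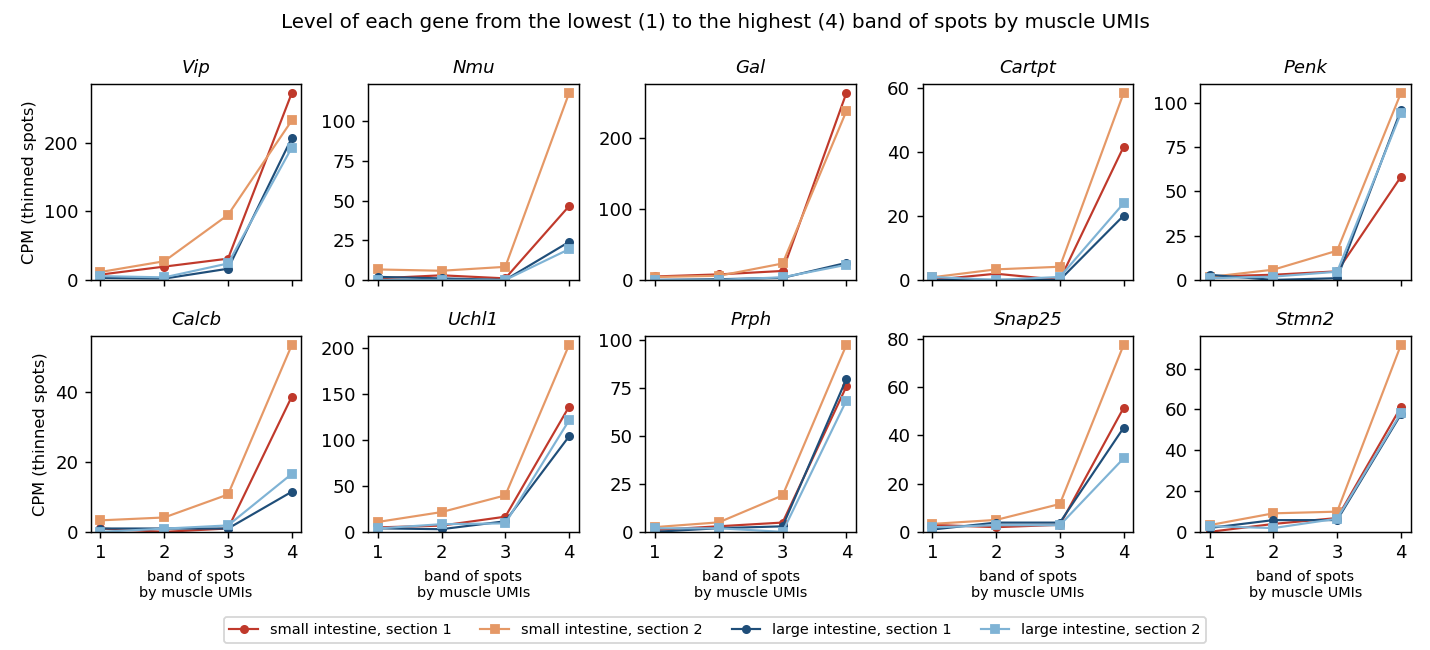
CPM of each gene after thinning, in the 4 bands of spots from the lowest (1) to the highest (4) muscle UMIs, with 1 line per section and its own linear axis for each gene. In all 10 panels the top band is the highest in each section, and the tissues run apart for Gal and overlap in the top band for Prph.

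The difference between the tissues was smaller among these muscle-rich spots, a comparison added after the values were seen. In the top band, Gal was at 263 and 238 CPM in small and at 24.0 and 21.3 CPM in large intestine, a log2 ratio of 3.46. Nmu was at 46.6 and 118 CPM against 24.0 and 19.4 CPM, Calcb at 38.8 and 53.6 CPM against 11.5 and 16.6 CPM, and Cartpt at 41.7 and 58.6 CPM against 20.2 and 24.0 CPM. These 4 genes remained called higher in small intestine, and no other member was, where 9.29% of the 11836 genes with at least 20 thinned UMIs in the top bands were called. Uchl1 was at 136 and 203 CPM against 104 and 121 CPM, and Snap25 at 51.5 and 77.6 CPM against 43.2 and 30.5 CPM. Prph was at 75.7 and 97.4 CPM against 79.7 and 68.4 CPM, and Stmn2 at 61.2 and 91.6 CPM against 57.6 and 58.2 CPM. The sections of the tissues overlapped for Prph. For Stmn2, small intestine section 1 lay close to the large intestine sections and section 2 above them. Penk was at 58.3 and 106 CPM against 96.0 and 94.3 CPM, so its sections overlapped too. A band is a share of each section's own spots, so the top bands differed in muscle RNA, with a median of 92 and 106.5 muscle UMIs per thinned spot in small and of 32 and 28 in large intestine.

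Members were found in the same spots more often than their shares of spots would give. With the sections of a tissue summed, all 45 pairs of members shared at least 1.5 times the expected number of spots in both tissues. Of 68158650 pairs among the 11676 genes with at least 20 thinned UMIs in each tissue, 3.39% did so. The median over the 45 pairs was 5.57 times the expected number in small and 7.98 times in large intestine. The rule set for single sections required at least 5 observed or expected spots in every section. It was met by 24 pairs, all of which shared more spots than expected in all 4 sections, where 12.0% of gene pairs under the same minimum did. As 0 of the 45 pairs had 5 expected spots in every section, that minimum itself fixes the direction for these 24 in at least 1 section, and nothing is read from that count.

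Nmu and Calcb shared spots most strongly, at 12.3 times the expected number in small and 26.3 times in large intestine. The numbers behind these ratios are small, with 9 and 23 shared spots in the small and 3 and 3 in the large intestine sections where 0.543, 2.07, 0.119 and 0.110 were expected. The next highest pairs in the large intestine all held Cartpt, at 19.5 times with Gal, 18.9 times with Calcb and 17.4 times with Snap25. They also rest on few shared spots in the large intestine sections, 1 and 4 with Gal, 2 and 3 with Calcb, and 7 and 5 with Snap25. The lowest ratio in small intestine was that of Vip and Penk, at 1.97 times, while the large intestine gave 6.20 times for this pair. They shared 6 and 11 spots in the small intestine sections, with 2.69 and 5.93 expected, and 17 and 19 in the large intestine sections, with 2.66 and 3.14 expected. The difference between the tissues was not tested. Penk and Nmu followed at 2.08 times in small and 13.5 times in large intestine. When the expected number was instead summed over the muscle bands, the ratios were smaller, with a median of 2.52 in small and 2.78 in large intestine. On that scale 44 of the 45 pairs lay above 1 in both tissues. The exception was Nmu and Penk, at 0.98 in small intestine, and Vip and Penk stood at 1.07 there and at 2.15 in large intestine. Nmu and Calcb stayed at 5.41 and 8.89 times. Spots of a section share their library and the members are not replicates, so these ratios describe the sections and carry no test.

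**Figure D4:**
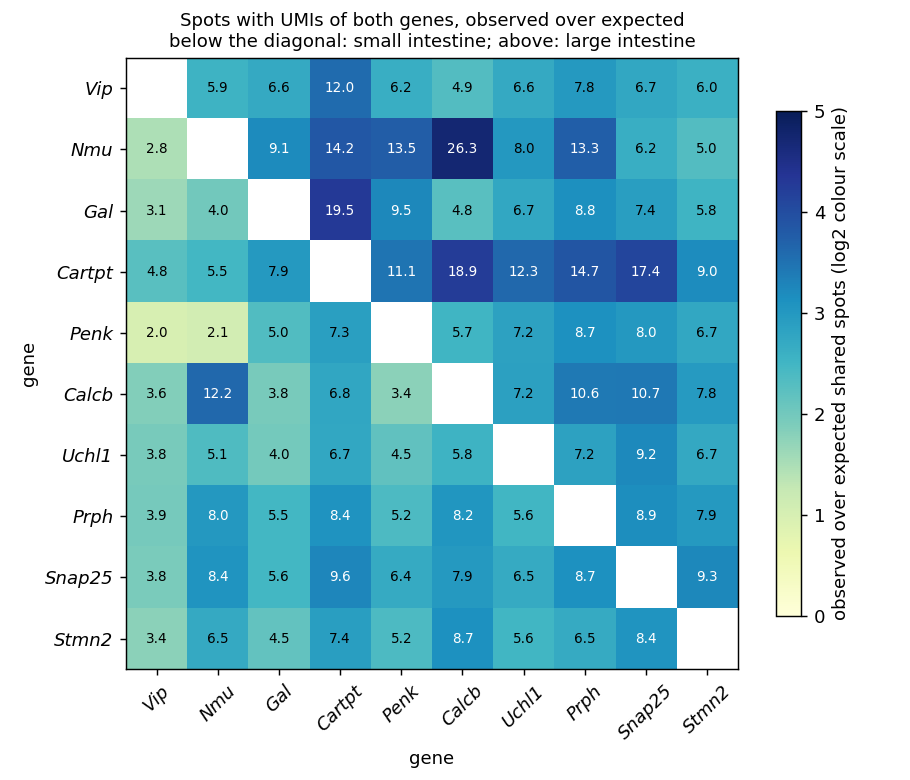
Observed over expected number of spots with UMIs of both genes for each pair, with small intestine below and large intestine above the diagonal and a log2 colour scale. All 45 pairs lie above 1 in both tissues, from 1.97 for Vip and Penk in small intestine to 26.3 for Nmu and Calcb in large intestine.

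Other genes were ranked by how much higher they were in spots with 2 or more members than in spots with none, taking for each gene the lowest log2 ratio of the 4 sections. Among 6865 genes with at least 50 thinned UMIs in every section, the median of this value was -0.52, counts under 3 being set to 3. The 10 highest were Scg2 (4.67), Calb2 (4.59), Pcsk1n (4.57), Sncg (4.19), Map1b (3.71), Sst (3.57), Bc1 (3.18), Tuba1a (2.76), Meg3 (2.74) and Ndn (2.68). Scg2 and Pcsk1n encode proteins of the peptide-secreting granule, Calb2 is the calcium-binding protein calretinin, a common label of enteric neurons, and Sncg is a synuclein. Map1b and Tuba1a belong to the neuronal microtubule skeleton, Sst is the precursor of somatostatin, and Bc1 is a small non-coding RNA of neurons. Scg2 and Sst were also on the lists fixed for the comparison of tissues. The glia gene Erbb3, which epithelium also expresses, reached the minimum for this ranking and was not higher in these spots in 3 of the 4 sections, with log2 ratios of -1.63, -1.79, 0.40 and -0.52. It does not stand for the glia list, whose other genes had too few UMIs for this ranking. Those genes all gave positive log2 ratios in every section, such as 4.08, 4.15, 3.44 and 3.45 for S100b. Setting small counts to 3 can raise such ratios.

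Genes of other cell types were then counted in spots with and without a UMI of each member. Muscle UMIs were higher in spots with the member for all 10 members in all 4 sections, by log2 ratios of 0.79 to 2.24, and epithelial UMIs were lower, by -0.25 to -1.61. Fibroblast genes were higher in 39 of 40 comparisons, by up to 1.31, the exception being Calcb in large intestine section 1 at -0.16. Enteroendocrine genes, whose cells also make peptides and granule proteins, were higher in 8 of 40 comparisons and by no more than 0.50.

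The dissociated cells held little RNA of these genes. A cell was kept if it held 500 genes or more and no more than 20% of its UMIs were mitochondrial, which left 2756 cells of sorted small and 6188 of sorted large intestine, and 540 control and 1037 coculture organoid cells. All 10 members were lower in the sorted library than in both sections of the same tissue, in both tissues, as were 42.3% of all genes tested. Of the members, 7 were at least 8-fold lower in both tissues, and 1.89% of all genes were. The sort, the dissociation and the part of the gut wall that was dissociated cannot be told apart here, and neurons were not among the cells enriched.

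Vip had 0 UMIs in all 4 single-cell libraries. Set at 3 UMIs, the limit that a count of 0 allows, its level was at least 1134-fold lower in the sorted small intestine than in the lower of the sections, and at least 1685-fold lower in the sorted large intestine. Gal had 13 UMIs in sorted small and 8 in sorted large intestine, 329-fold and 63.1-fold below the sections. Prph had 2 and 8 UMIs, Nmu 10 and 6, Calcb 2 and 7, and Cartpt 3 and 0. No cell held UMIs of more than 3 members. Cells with 3 members numbered 2 in the coculture organoids, both with enteroendocrine genes, 2 in sorted large intestine, and 0 in the other libraries. In the sections, by contrast, up to 42 thinned spots held UMIs of 5 or more members, though a spot can cover several cells.

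**Figure D5:**
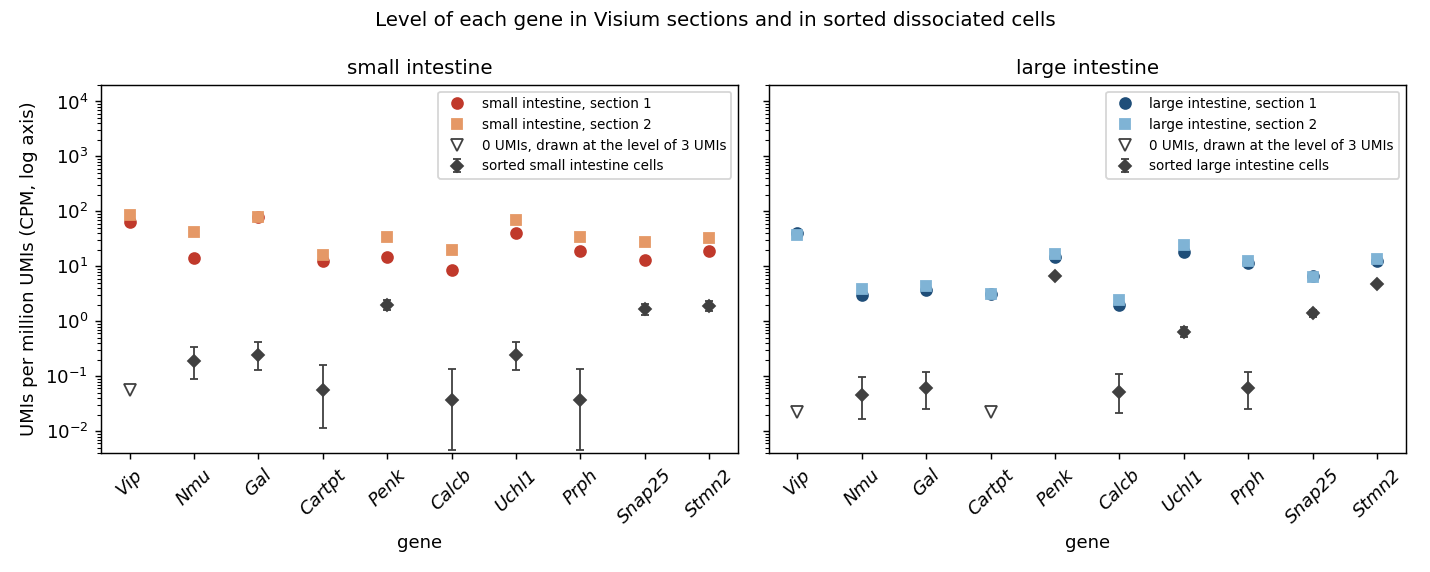
CPM of each gene in the Visium sections and in the sorted cells of the same tissue on a log axis, with 95% counting intervals for the cells. Vip has 0 UMIs in both sorted libraries and is drawn at the level of 3 UMIs, while Penk, Snap25 and Stmn2 come closest to the sections.

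Penk, Snap25 and Stmn2 were the members with more RNA in the sorted cells. Cells were grouped by UMIs of at least 3 genes of a list, which gives a range of cells and not a type, and 3 such ranges are used. They rest on 5 fibroblast genes (Col1a1, Col1a2, Dcn, Lum and Col3a1), 10 enteroendocrine genes, and 5 endothelial genes (Pecam1, Kdr, Cdh5, Egfl7 and Emcn) that were chosen after the values were seen. Penk had 106 UMIs in sorted small and 896 in sorted large intestine, and 95.3% and 97.1% of them lay in the 90 and 539 cells with fibroblast genes. Penk reached 125 and 162 CPM in those cells. After thinning to 2000 UMIs, 17 of 87 (19.5%) and 115 of 511 (22.5%) of them held a Penk UMI. Without thinning these shares were 28.9% and 33.6%.

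Snap25 had 88 and 186 UMIs in the same libraries, with 89.8% and 67.7% of them in the 95 and 102 cells with enteroendocrine genes. In the coculture organoids 248 of its 249 UMIs lay in the 114 such cells, and all 14 of the control organoids lay in 5 of its 7 such cells. Stmn2 had 103 and 644 UMIs, and 88.3% and 51.9% of them lay in the 330 and 241 cells with endothelial genes, where it reached 56.1 and 239 CPM. A further 42.4% of the Stmn2 UMIs of sorted large intestine lay in the cells with fibroblast genes. Uchl1 had 13 and 87 UMIs, spread over all 3 ranges, with 46.0% of those of sorted large intestine in cells with enteroendocrine genes.

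These shares were set against cells in which the genes should be absent. Cells with B cell genes held UMIs of at least 2 of 4 B cell genes and no UMI of Epcam, Krt8 or Krt19. Thinned in the same way, they held a UMI of Penk, Snap25 or Stmn2 in 0 of 139 cells of sorted small and 0 of 41 of sorted large intestine. The other ranges had no such exclusion, so cells with B cell genes were chosen for little epithelial RNA and are not an even background. Those counts allow a share of up to 2.16% and 7.32%. Without thinning, 1 of 156 such cells of sorted small intestine held Penk and 1 of 48 of sorted large intestine held Stmn2. The thinned shares of Snap25 in cells with enteroendocrine genes, 11.8% and 19.8%, of Stmn2 in cells with endothelial genes, 7.96% and 36.5%, and of Penk in cells with fibroblast genes were above these limits. Without thinning the Snap25 shares were 23.2% and 35.3% and the Stmn2 shares 11.2% and 49.8%. Before thinning, the median depth was 33811 and 25811 UMIs in cells with enteroendocrine genes, 6836 and 7567 in those with fibroblast genes, 4000 and 3886 in those with endothelial genes, and 2766 and 2640 in those with B cell genes. Cells with exactly 3 genes of a list, next to the limit, numbered 56 and 56 for the enteroendocrine, 8 and 69 for the fibroblast and 49 and 32 for the endothelial genes. In the sections, whether the Penk, Snap25 and Stmn2 UMIs came partly from such cells was not tested. Fibroblast UMIs per spot were higher where Penk was found, by log2 ratios of 0.78, 0.71, 0.90 and 1.31, and Stmn2 gave similar values of 1.16, 1.11, 0.82 and 0.99.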

How the data were processed

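RNA was measured in 8 libraries, 4 single-cell and 4 Visium. Each deposited matrix holds counts, the UMIs per gene and barcode, with no normalization, written per the file headers by Cell Ranger 6.0.1 (cells) or Space Ranger 1.2.1 (Visium). The submitters' processing notes name Cell Ranger 6.0.1 and mm10 for every sample, and the annotation release is not given in the sources used here. A table of mouse gene names held 32158 of the 32285 gene IDs. The sorted libraries share 25 barcodes and the organoid libraries 0.

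Spots with at least 500 UMIs were kept (2094 and 2571 of small, 2094 and 2179 of large intestine). A cell needed 500 genes or more and no more than 20% mitochondrial UMIs, and doublets were not removed. Spot positions were not used. CPM sums the UMIs of a section or library, and ratios used 3 in place of smaller counts. Intervals are 95% limits (exact Poisson, binomial or Poisson ratio), cover counting error only, and do not treat UMIs of 1 section as replicates. The calling rule and the counts of shared spots were tested on simulated data. The alternatives were other scalings (median of ratios, and TMM with edgeR 4.0.16 in R 4.3.3), spot filters, thinning depths, denominators and each section left out. The top 25% of spots by muscle UMIs and the scale per muscle UMI were added after the data were seen. Python 3.11.15, numpy 2.4.6, scipy 1.17.1 and pandas 2.3.3 were used.

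The members, lists and rules were chosen with earlier results of these data known. All members are named. Further genes named are the 10 most alike across spots and, from each list of neuronal, transmitter, receptor, glia, muscle and interstitial genes, those called between tissues. Where over 4 or none were called, the 2 highest and 2 lowest log2 ratios are named. Part of the glia list is not reported here.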

Additional observations from a re-analysis of the deposited data

Results flagged for a closer look

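The enteroendocrine RNA of spots with Uchl1 stood apart between the tissues in direction. In both small intestine sections, spots with a Uchl1 UMI held fewer enteroendocrine UMIs than spots without one, with log2 ratios of -0.76 [-1.30 to -0.27] and -0.46 [-0.83 to -0.11]. In the large intestine sections the log2 ratios were 0.24 [-0.08 to 0.54] and 0.30 [0.02 to 0.57], and the counting interval of section 1 covers 0. The brackets are 95% limits for counting error only. The values of both sections of a tissue lay on the same side of 0 and those of the other tissue on the opposite side, and the difference between the tissues was not tested. In the sorted cells, 23.1% of the Uchl1 UMIs of small intestine and 46.0% of those of large intestine lay in cells with enteroendocrine genes, on 13 and 87 UMIs. The part of such cells in the Uchl1 level of the sections was not tested.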

How the results depend on the processing

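No paired analysis was possible because the sections of a tissue are technical duplicates and no test was made. The count of 8 members higher in small intestine was 4 with the mean over spots of each spot's CPM, 4 in the top 25% of spots by muscle UMIs and 1 per muscle UMI, and lay between 4 and 10 with a section left out. Gal, Nmu, Calcb and Cartpt were called in each of these except the scale per muscle UMI, where Gal alone was. The scale per muscle UMI lowers every log2 ratio by 2.19, which calls 86.7% of all genes higher in large intestine. On it, 3 members were called higher in large intestine instead of 0, and Uchl1, Prph, Snap25 and Stmn2 reversed to -0.77, -0.98, -0.54 and -1.16. The count was 7 to 9 under the other scalings, spot filters, gene filter and log2 limit. Leaving mitochondrial and ribosomal protein genes out of CPM lowered every log2 ratio by 0.15, and Stmn2 then lost its call, as it did with TMM. Pairs sharing more spots in every section numbered 24, and 7 with thinning to 1000 UMIs and 45 with no thinning, since the minimum of 5 spots depends on depth. The 4 precursors higher per pan-neuronal UMI, the 10 members higher in muscle-rich spots and the 10 lower in sorted cells kept their counts in every alternative run. Each tissue is 1 sample, so no difference between small and large intestine extends beyond these sections. The large intestine values of Calcb rest on 82 and 108 UMIs.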

Other observations

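The organoids were epithelial cultures, and the members detected there lay in few cells. In the coculture organoids Cartpt had 30 UMIs in 4 cells, of which 26 lay in a single cell, and 29 of the 30 lay in cells with at least 3 enteroendocrine genes. Gal had 10 UMIs in 5 cells there, all with enteroendocrine genes. In the control organoids Cartpt and Gal had 0 UMIs, and Calcb had 17 UMIs in 4 cells, 9 of them in 1 cell and 0 in cells with enteroendocrine genes. Vip and Stmn2 had 0 UMIs in both organoid libraries. With 1 library per culture these counts describe the libraries and make no comparison of the cultures.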
